A study of Mus musculus with 9 samples.

Results

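Lipoprotein and scavenger receptors are the cell-surface proteins through which macrophages can bind and internalise lipid-carrying particles, modified lipoproteins and debris. The 9 genes described here were chosen by name, as the rows of the deposited table of estimated gene counts that carry the symbols Vldlr, Lrp1, Lrpap1, Scarb1, Msr1, Marco, Cd68, Olr1 and Stab1, out of 54432 genes in the table. All 9 symbols matched 1 row each, and 7 of the 9 passed the filter on low counts and were tested. The choice was made with earlier results of these data known.

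RAW 264.7 cells, a mouse macrophage-like line, were compared in 3 groups of 3 libraries each. Untreated cells (CTRL) served as controls. VLDLsep and CHYLsep cells were exposed for 6 h to triglyceride-rich emulsion particles at 1 mM, of VLDL size in the former and of chylomicron size in the latter. By the study's methods the particles were made of sunflower oil with sodium caseinate as emulsifier. No group received the emulsifier alone, so effects of the oil and of the emulsifier cannot be told apart. All groups were of the same line at passages 13 to 15 in serum-containing medium, the labels name no genetic alteration, and, per the study's methods, samples of a condition from 1 experiment were pooled, so that each library stands for a pool of cultures.

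The very-low-density lipoprotein receptor Vldlr and the low-density lipoprotein receptor-related protein Lrp1 belong to the LDL receptor family, whose members carry ligands into endosomes and mostly return to the surface. Lrpap1 encodes the receptor-associated protein, a chaperone of the endoplasmic reticulum that keeps members of this family from binding ligand before they reach the surface. The scavenger receptors are grouped in structural classes rather than by descent. Msr1 and Marco are collagen-like receptors of class A, Scarb1 is the class B receptor for high-density lipoprotein, Cd68 is a mainly endosomal and lysosomal glycoprotein of class D, Olr1 is the lectin-like receptor for oxidised LDL of class E, and Stab1 is a large multi-domain receptor of class H.

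The 9 libraries held 22393893 to 22856792 estimated counts each. Levels are given as cpm, counts per 1000000 after scaling by TMM (trimmed mean of M-values), and changes as log2 fold changes with their standard errors (SE). These come from limma-voom fitted over all 9 libraries and 12637 genes, with p-values adjusted by the Benjamini-Hochberg method and a gene called at an adjusted p under 0.05. The 3 libraries numbered 3, 1 in each group, stood apart from the others of their group on the second principal component, which held 14.4% of the variance, and the calls without them are given below. All 10 macrophage markers examined were detected. Marker sums are given as cpm by library size alone, without TMM scaling. Summed levels of T cell, B cell, neutrophil, endothelial, fibroblast and adipocyte markers reached at most 2.51 cpm in any library. The epithelial markers Epcam, Krt8, Krt18 and Cdh1 were at 0. The summed macrophage markers were 6608 to 6824 cpm in CTRL, 5397 to 5643 in VLDLsep and 5598 to 5887 in CHYLsep. TMM factors were higher in CTRL than in treated libraries, so library-size scaling makes this fall larger. In the TMM-scaled fit, 6 and 3 of the 10 were called lower after the respective particles and none higher. Of all genes tested, 17.9% and 13.0% were called lower. The share of counts from mitochondrially encoded genes was 5.59 to 5.98% in CTRL, 6.22 to 6.83% in VLDLsep and 6.58 to 6.9% in CHYLsep. The part of either shift in the results below was not tested, and in bulk RNA fewer cells with a transcript cannot be told apart from less of it per cell.

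The receptors differed widely in abundance. Per kb of the longest annotated transcript, mean levels in the untreated cells were 754 ± 15.1 cpm for Cd68 (SD, n = 3), 214 ± 4.38 for Msr1, 59.5 ± 2.48 for Scarb1, 47.9 ± 1.32 for Lrpap1, 45.4 ± 4.77 for Lrp1, 14.7 ± 0.233 for Stab1 and 1.37 ± 0.26 for Marco. Among the tested genes with a transcript length, these levels stood at the 99.6th percentile for Cd68, the 97.7th for Msr1 and the 20.6th for Marco. The libraries of neighbouring genes in this order did not overlap except for Lrpap1 (46.6 to 49.2 cpm per kb) and Lrp1 (40.3 to 49.7). The place of Lrp1 depends on the length used, since its longest transcript is 14888 bases and the median of its annotated transcripts 2887, which gives 234 ± 24.6 cpm per kb.

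**Figure D1:**
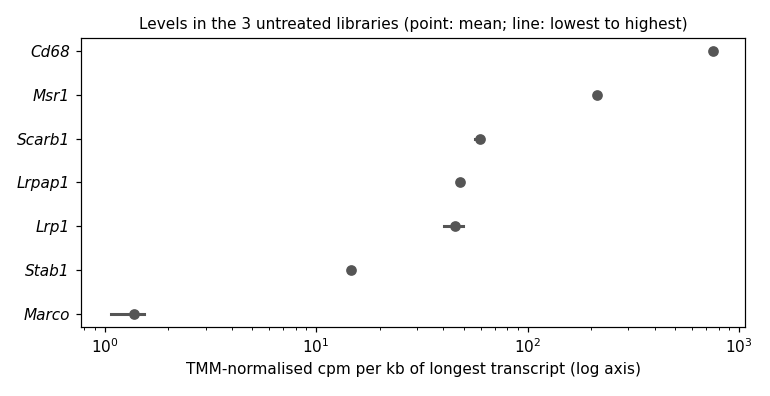
Levels of the 7 detected receptors and receptor-associated genes in the 3 untreated libraries, as TMM-normalised cpm per kb of the longest transcript on a log axis, with points for means and lines from the lowest to the highest library. Cd68 was highest at a mean of 754 and Marco lowest at 1.37, and the lines of Lrpap1 and Lrp1 overlap.

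Neither the VLDL receptor nor the oxidised LDL receptor was detected in these cells. Vldlr (chr19:27216484-27254231, plus strand, GRCm38) and Olr1 (chr6:129485244-129507165, minus strand) each had 0 counts in all 9 libraries. A count of 0 allows up to 3 counts, which corresponds to 0.131 to 0.134 cpm in a single library and to 0.0147 cpm over all 9, for counting error only. No fold change is therefore given for either gene, with or without particles.

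The start regions of these genes are shown because they include genes at 0, at a low level and at a high level in the same cells. Of the 9 genes, 7 had an entry among the RefSeq promoter windows of build GRCm38.p6 (Vldlr had 2), and Scarb1 and Msr1 had none. The 250 bases before the start are printed for Marco (chr1:120505025-120505274), Cd68 (chr11:69666171-69666420), Lrp1 (chr10:127621149-127621398) and Olr1 (chr6:129507166-129507415), all on the minus strand and written 5′ to 3′ along the gene. Capitals mark matches, on either strand, to 5 sets of letters, namely TCACCCCAC (sterol regulatory element), TGACNNNGC (antioxidant response element), TGANTCA (AP-1), GAGGAAG (PU.1) and TGATGNAA (ATF4).
Marco: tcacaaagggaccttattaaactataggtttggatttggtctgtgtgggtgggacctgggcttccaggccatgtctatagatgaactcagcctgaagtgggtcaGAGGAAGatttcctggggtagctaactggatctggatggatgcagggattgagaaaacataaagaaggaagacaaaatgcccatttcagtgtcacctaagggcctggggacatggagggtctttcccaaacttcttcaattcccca
Cd68: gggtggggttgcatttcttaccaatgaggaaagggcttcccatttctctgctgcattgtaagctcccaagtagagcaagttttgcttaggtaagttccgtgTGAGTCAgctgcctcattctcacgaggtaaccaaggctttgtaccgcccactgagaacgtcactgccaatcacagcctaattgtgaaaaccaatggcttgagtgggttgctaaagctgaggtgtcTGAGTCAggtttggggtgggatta
Lrp1: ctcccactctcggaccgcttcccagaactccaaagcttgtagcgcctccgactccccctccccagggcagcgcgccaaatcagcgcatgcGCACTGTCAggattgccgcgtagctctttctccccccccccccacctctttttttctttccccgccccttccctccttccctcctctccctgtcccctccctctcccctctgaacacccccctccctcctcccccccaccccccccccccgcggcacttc
Olr1: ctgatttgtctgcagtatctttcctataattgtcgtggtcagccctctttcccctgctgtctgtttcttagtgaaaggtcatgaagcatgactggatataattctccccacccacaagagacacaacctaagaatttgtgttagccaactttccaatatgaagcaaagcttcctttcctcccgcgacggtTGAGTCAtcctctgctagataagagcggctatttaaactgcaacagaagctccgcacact

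The Marco window held 1 PU.1 match starting 146 bases before the start, and no CpG dinucleotide, against a median of 6 CpG among all 32851 windows of this length. The Cd68 window held AP-1 matches at 149 and 24 bases before the start, and the Olr1 window 1 at 60 bases. The Lrp1 window held 1 antioxidant response match at 160 bases and 13 CpG. Of all windows, 10.6% held the PU.1 letters, 6.75% the AP-1 letters, 10.2% the antioxidant response letters, 3.45% the ATF4 letters and 0.496% the sterol regulatory letters. The windows of Lrpap1 and Stab1 held no match to any of the 5, and those of Vldlr held 1 PU.1 match and 1 ATF4 match. Any relation between these letters and the level of a gene was not tested.

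After VLDL-sized particles, 4 of the 7 tested genes were called, with Marco, Lrpap1 and Cd68 higher and Scarb1 lower. Over all genes tested, 35.6% were called in this comparison, 17.8% higher and 17.9% lower. After chylomicron-sized particles, 4 of the 7 were called, with Marco and Lrpap1 higher and Scarb1 and Lrp1 lower, against 25.7% of all genes, 12.7% higher and 13.0% lower. The median log2 fold change of the 7 was 0.11 after VLDL-sized and 0.03 after chylomicron-sized particles, against 0.00 for all genes in both. The libraries of treated and control cells did not overlap for 7 of 7 genes after VLDL-sized and 5 of 7 after chylomicron-sized particles, where 47.4% and 41.7% of all genes did not overlap. Both comparisons use the same control libraries, so their values stand side by side and are not independent. Without the libraries numbered 3, 5 of 7 were called in either comparison, the 4 above together with Lrp1 (log2 fold change of -0.29, adjusted p = 0.0022, limma) after VLDL-sized and Cd68 (0.13, adjusted p = 0.028) after chylomicron-sized particles. Calls over all genes rose as well, to 5380 and 4182 of the 12386 then tested, from 4500 and 3249 of 12637.

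**Figure D2:**
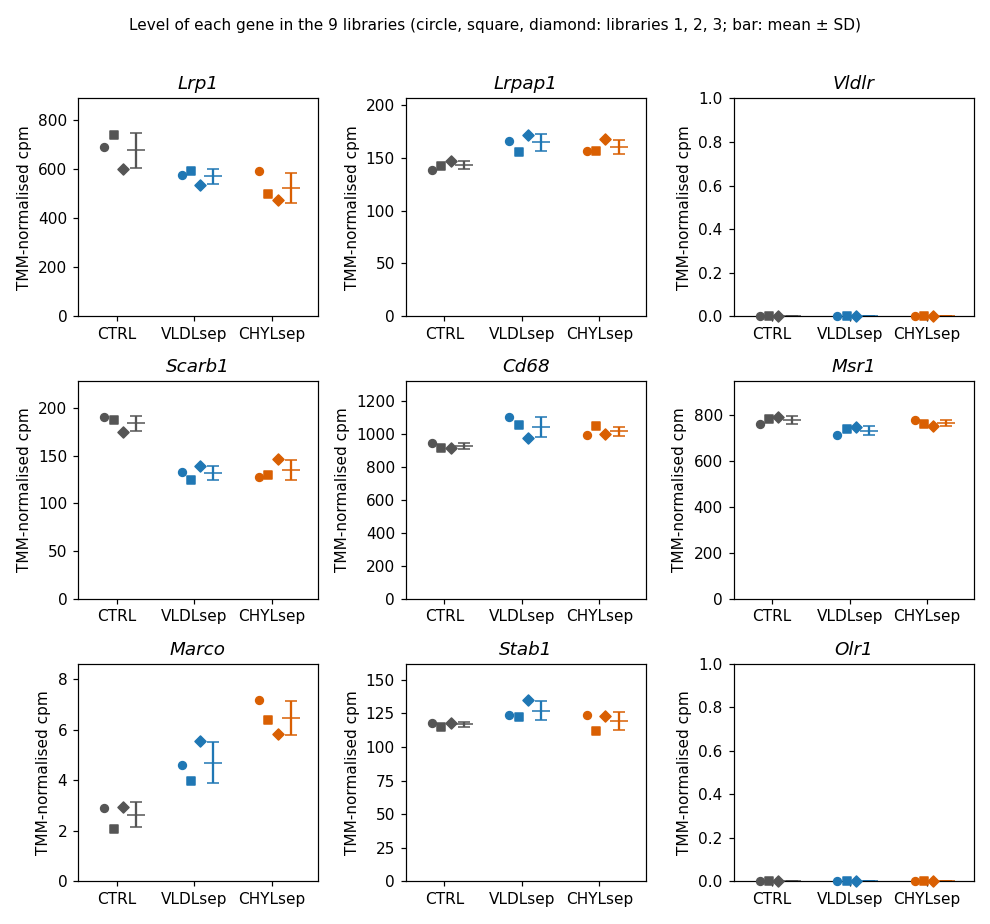
TMM-normalised cpm of each of the 9 genes in every library, with circles, squares and diamonds for libraries 1, 2 and 3, a bar for the mean ± SD of 3 libraries, and an axis from 0 in each panel. Scarb1 lies lower and Marco higher in all treated libraries than in all untreated ones, and Vldlr and Olr1 are at 0 throughout.

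Scale mattered for the small changes. TMM factors were 1.021 to 1.052 in CTRL, 0.9639 to 0.9841 in VLDLsep and 0.9704 to 0.9949 in CHYLsep. Scaling by library size alone shifted the median change of the 12637 genes on the log2 scale to -0.094 after VLDL-sized and -0.079 after chylomicron-sized particles. With it, higher calls made up 31.3% of all calls rather than 49.9% after VLDL-sized particles and 29.8% rather than 49.6% after chylomicron-sized particles. The calls among the 7 genes then numbered 1 up and 3 down, rather than 3 and 1, with VLDL-sized particles, and 1 up and 2 down, rather than 2 and 2, with chylomicron-sized particles.

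Lrp1 (chr10:127538161-127621148, minus strand) is a large endocytic receptor for apolipoprotein E-containing remnants, protease-inhibitor complexes and many other ligands. Its level was 691, 739 and 599 cpm in the CTRL libraries, 577, 593 and 536 in VLDLsep and 589.7, 498 and 474 in CHYLsep. All 6 treated libraries lay under the lowest control library, which was number 3. The log2 fold change was -0.38 (SE 0.09, 95% confidence interval -0.59 to -0.17, adjusted p = 0.013) after chylomicron-sized particles, and the call was lost without CTRL library 2, at -0.31 and an adjusted p of 0.054. After VLDL-sized particles it was -0.25 (SE 0.09, interval -0.45 to -0.04) and missed the threshold at an adjusted p of 0.062. In the latter comparison each VLDLsep library deviated most like the CTRL library of its own number, but only narrowly for number 2 (correlation of 0.13 against 0.12). The fit with the replicate number as a block gave an adjusted p of 0.0033 at the same change. Leaving out CTRL library 3 gave -0.33 and an adjusted p of 0.015. DESeq2 (adjusted p = 0.032), library-size scaling (-0.34, adjusted p = 0.024) and a fit of CTRL and VLDLsep only (adjusted p = 0.043) called it as well, so that it was called in 6 of 16 alternatives, whose changes ranged from -0.34 to -0.18. The alternatives that did not call it reached an adjusted p of 0.21, without CTRL library 2, and 0.16, without VLDLsep library 3.

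Lrpap1 (chr5:35091501-35105766, minus strand), the chaperone of Lrp1 and its relatives, was called higher after both particles. It was at 139, 142 and 147 cpm in CTRL, 166, 156 and 172 in VLDLsep and 157, 157 and 168 in CHYLsep, with every treated library above every control library. The log2 fold change was 0.21 (SE 0.05, interval 0.09 to 0.32, adjusted p = 0.01) after VLDL-sized and 0.17 (SE 0.05, interval 0.05 to 0.28, adjusted p = 0.037) after chylomicron-sized particles, that is 1.15-fold and 1.12-fold. Scaling by library size alone ended both calls, with 0.11 (adjusted p = 0.072) and 0.09 (adjusted p = 0.18). The call after chylomicron-sized particles was also lost when CTRL library 1 or 2, or any CHYLsep library, was left out, with changes of 0.14 to 0.18 and adjusted p-values of 0.062 to 0.13. With no filter on low counts it was lost as well (0.17, adjusted p = 0.058).

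Scarb1 (chr5:125277087-125341094, minus strand) mediates selective uptake of cholesteryl esters from high-density lipoprotein and cholesterol exchange with it. It was at 190.2, 187 and 175 cpm in CTRL, 133, 125 and 139 in VLDLsep and 128, 129.6 and 147 in CHYLsep. The groups were clearly separated, with the highest treated library at 147 and the lowest control library at 175. Scarb1 fell to 0.718 times the control level after VLDL-sized particles (log2 fold change of -0.48, SE 0.07, interval -0.62 to -0.33, adjusted p = 0.00027) and to 0.731 times after chylomicron-sized particles (-0.45, SE 0.07, interval -0.6 to -0.31, adjusted p = 0.00064). Both calls were kept in all 16 alternatives run for each comparison, with changes of -0.57 to -0.44 and -0.55 to -0.42.

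Marco (chr1:120474538-120505024, minus strand), a class A receptor known for binding bacteria and particles, gave the largest change of the 7 in both comparisons with controls, from a low level. Its estimated counts were 69, 49 and 69 in CTRL, 101, 88 and 122 in VLDLsep and 162, 142 and 128 in CHYLsep. These correspond to 2.9, 2.06 and 2.96 cpm, 4.61, 3.95 and 5.55 cpm, and 7.17, 6.39 and 5.83 cpm. The 3 groups did not overlap, with CTRL lowest, VLDLsep between and CHYLsep highest. The difference between the particles was not called (adjusted p = 0.64, limma-voom), and 11.3% of all genes did not overlap between them. Marco rose 1.78-fold after VLDL-sized particles (log2 fold change of 0.83, SE 0.19, interval 0.41 to 1.26, adjusted p = 0.0064) and 2.46-fold after chylomicron-sized particles (1.3, SE 0.18, interval 0.9 to 1.7, adjusted p = 0.00052). Both calls were kept in all 16 alternatives, over ranges of 0.66 to 0.95 and 1.13 to 1.46.

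Msr1 (chr8:39581685-39642673, minus strand), the other class A receptor and one that binds acetylated and oxidised LDL, was not called after either particle. It was at 758, 783 and 788 cpm in CTRL, 710, 738 and 745 in VLDLsep and 775, 760.4 and 750.2 in CHYLsep. The VLDLsep libraries lay just under the CTRL libraries, while the CHYLsep libraries overlapped them. The log2 fold change was -0.09 (SE 0.04, interval -0.18 to 0.01, adjusted p = 0.14) after VLDL-sized particles and -0.03 (SE 0.04, interval -0.12 to 0.07, adjusted p = 0.69) after chylomicron-sized particles. Scaling by library size alone gave a call after VLDL-sized particles, at -0.18 and an adjusted p of 0.0054.

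Cd68 (chr11:69664213-69666153, minus strand), widely used as a macrophage marker, was at 949, 916 and 917 cpm in CTRL, 1102, 1053 and 977 in VLDLsep and 997, 1050 and 1003 in CHYLsep. All treated libraries lay above all control libraries, by small margins. The log2 fold change was 0.17 (SE 0.05, interval 0.05 to 0.28, adjusted p = 0.028) after VLDL-sized particles, and 0.13 (SE 0.05, interval 0.02 to 0.25, adjusted p = 0.089), not called, after chylomicron-sized particles. The call after VLDL-sized particles did not hold when only CTRL and VLDLsep were fitted (adjusted p = 0.052) or with library-size scaling (0.08, adjusted p = 0.31). It was also lost when any CTRL library, or VLDLsep library 1 or 2, was left out, with changes of 0.13 to 0.18 and adjusted p-values of 0.051 to 0.1.

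Stab1 (chr14:31139013-31168641, minus strand), a receptor for acetylated LDL and extracellular matrix debris, was at 118, 115 and 118 cpm in CTRL, 124, 122 and 135 in VLDLsep and 124, 112 and 123 in CHYLsep. The VLDLsep libraries lay above CTRL and the CHYLsep libraries overlapped it. The log2 fold change was 0.11 (SE 0.06, interval -0.01 to 0.24, adjusted p = 0.15) after VLDL-sized and 0.03 (SE 0.06, interval -0.1 to 0.15, adjusted p = 0.77) after chylomicron-sized particles. With the replicate block the first reached an adjusted p of 0.045. Exons of Stab1 overlap those of Nt5dc2 on the other strand, and reads in that stretch cannot be told apart where the counting does not use strand.

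**Figure D3:**
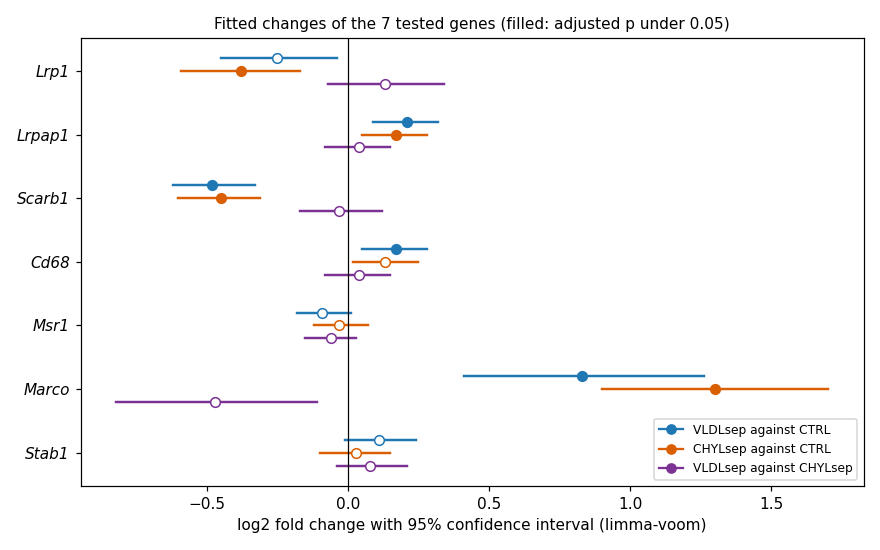
Fitted log2 fold changes (x axis) of the 7 tested genes (y axis) in the comparisons of VLDLsep with CTRL, CHYLsep with CTRL and VLDLsep with CHYLsep, with lines for 95% confidence intervals and filled points for adjusted p-values under 0.05. Marco lies furthest to the right at 0.83 and 1.3, Scarb1 at -0.48 and -0.45, and no point of the direct comparison of the particles is filled.

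The particles were also compared with each other, at the same dose and time by the study's methods. The legend of a supplementary heatmap from the study gives a lower dose for the chylomicron-sized particles. No gene of the 12637 was called with limma-voom (0.0%), although 813 had an unadjusted p under 0.05, and DESeq2 called 24 and edgeR's quasi-likelihood test none. Of the 7 receptors and receptor-associated genes, 2 had libraries that did not overlap between the particles (11.3% of all genes), namely Marco and Msr1. The difference for Marco, VLDLsep minus CHYLsep, was -0.47 on the log2 scale (SE 0.16, interval -0.82 to -0.11, unadjusted p = 0.014, adjusted p = 0.64, limma-voom). By library number the differences were -0.63, -0.68 and -0.07. Groups that do not overlap give the same sign in any pairing, so this adds nothing to the lack of overlap. Over the alternatives the fitted difference lay between -0.66 and -0.35, with its lowest adjusted p, 0.057, without the libraries numbered 3. For the other 6 genes the intervals of the difference reached from -0.17 to 0.34 at the widest, with -0.03 (interval -0.17 to 0.12) for Scarb1, 0.13 (-0.07 to 0.34) for Lrp1, 0.04 (-0.08 to 0.15) for Lrpap1 and for Cd68, -0.06 (-0.15 to 0.03) for Msr1 and 0.08 (-0.04 to 0.21) for Stab1.

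The wider set of genes around these receptors held 71 further names in 5 lists, of which 50 were tested. VLDL-sized particles gave 22 calls among them, of which 10 were higher and 12 lower, and chylomicron-sized particles gave 18, of which 9 were higher and 9 lower. Scaled by library size, the splits were 6 and 15, and 6 and 12. The shares called were 44% and 36%, against 35.6% and 25.7% of all genes. The lists were written with earlier results of these data known, so these shares are a description only. By list, 18.2 to 62.5% were called after VLDL-sized and 27.3 to 44.4% after chylomicron-sized particles, on 8 to 12 tested genes each. Without the libraries numbered 3, 27 of the 49 then tested (all but Cd36) were called in either comparison, where 5380 and 4182 of all 12386 genes were called. The median log2 fold changes of the 50 were -0.04 and -0.08.

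Among 13 relatives and neighbours of Lrp1 (the LDL receptor family and the lipolysis-stimulated receptor Lsr), 9 were tested and 5 were called after VLDL-sized particles and 4 after chylomicron-sized particles. These were 55.6% and 44.4% of the 9, against 35.6% and 25.7% of all genes. Lrp8, the apolipoprotein E receptor 2 and the closest relative of Vldlr, was at 51.6, 52.8 and 52.3 cpm in CTRL, 117, 106 and 127 in VLDLsep and 117, 108 and 127 in CHYLsep. Lrp8 rose 2.23-fold (log2 fold change of 1.16, SE 0.08, adjusted p = 2.2e-06) and 2.24-fold (1.17, SE 0.08, adjusted p = 3.3e-06). Lsr went from a mean of 32.3 ± 0.687 cpm (SD, n = 3) in CTRL to 19.4 ± 2.35 in VLDLsep and 22 ± 2.71 in CHYLsep, with log2 fold changes of -0.74 (adjusted p = 0.00025) and -0.56 (adjusted p = 0.002). Further calls, named here outside the rule for named genes and after their values were seen, were Lrp5, lower after both particles (-0.31 and -0.3), and Lrp12, higher after VLDL-sized particles (0.2).

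Of 12 ligands and bridging factors, 8 were tested. After VLDL-sized particles 3 were called higher and 2 lower, and after chylomicron-sized particles 2 higher and 1 lower. Together the calls were 62.5% and 37.5% of the 8, against 35.6% and 25.7% of all genes. Plau, the urokinase-type plasminogen activator, went from 81.8 ± 14.5 cpm to 37.3 ± 10.4 and 42.9 ± 9.35 (SD, n = 3 each), with log2 fold changes of -1.15 (SE 0.19, adjusted p = 0.00095) and -0.94 (SE 0.19, adjusted p = 0.0043). Apoc2, the cofactor of lipoprotein lipase, at a mean of 1.1 cpm in CTRL, was called lower after VLDL-sized particles (-1.12, SE 0.29, adjusted p = 0.013), a call lost without VLDLsep library 2 (-0.99, adjusted p = 0.053), while the value after chylomicron-sized particles was -0.54 (adjusted p = 0.17). Further calls, likewise named after their values were seen, were Lpl, lipoprotein lipase, which bridges particles to proteoglycans and receptors (0.22 and 0.21, called after both), and App (0.17, after VLDL-sized particles).

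Of 12 adaptors and regulators of these receptors, 10 were tested and 3 were called after each particle, 1 higher and 2 lower. That is 30% after each, where 35.6% and 25.7% of all genes were called. Dab2, an endocytic adaptor that binds the tails of LDL receptor family members, was at 1357, 1298 and 1373 cpm in CTRL, 728, 721 and 698 in VLDLsep and 819.5, 859.9 and 802 in CHYLsep. It fell by 0.91 (SE 0.05, adjusted p = 3.3e-07) and by 0.7 (SE 0.05, adjusted p = 3.2e-06) on the log2 scale. The particles did not overlap for Dab2, with a difference of -0.21 (SE 0.05, unadjusted p = 0.00097, adjusted p = 0.51) that DESeq2 called at an adjusted p of 0.016. The sorting nexin Snx17 (-0.29 and -0.23) and the chaperone Hsp90b1 (0.21 and 0.17) make up the counts.

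Heparan sulfate proteoglycans and the enzymes that build their chains give lipoproteins a further binding site at the surface. Of 16 listed, 12 were tested, and VLDL-sized particles gave 2 higher and 5 lower calls, chylomicron-sized particles 2 higher and 3 lower. Calls made up 58.3% and 41.7% of the 12, against 35.6% and 25.7% of all genes. Ext1, a polymerase of the heparan sulfate chain, was at 35.2, 34.2 and 33.9 cpm in CTRL, 69.2, 67.5 and 95.5 in VLDLsep and 67.5, 64.0 and 97.7 in CHYLsep, with the libraries numbered 3 highest in both treated groups. Ext1 rose 2.22-fold (log2 fold change of 1.15, SE 0.17, adjusted p = 0.00051) and 2.18-fold (1.12, SE 0.17, adjusted p = 0.00099). The glypican Gpc1 rose from 33.3 ± 0.37 cpm to 52.5 ± 1.79 and 51.5 ± 1.04 (SD, n = 3 each), with log2 fold changes of 0.66 (adjusted p = 6.6e-06) and 0.63 (adjusted p = 1.5e-05). The sulfotransferase Ndst1 was called lower after VLDL-sized particles (-0.77, SE 0.24, adjusted p = 0.028), a call lost without CTRL library 1 or 2 or VLDLsep library 2 or 3 (-0.77 to -0.58, adjusted p-values of 0.064 to 0.1) or without the libraries numbered 3 (-0.61, adjusted p = 0.065), and was not called after chylomicron-sized particles (-0.39, adjusted p = 0.24). The other lower calls were Sdc3, Ndst2 and Hs6st1 after both particles and Hs2st1 after VLDL-sized particles, with values of -0.44 to -0.19.

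Of 18 other scavenger receptors, 11 were tested, and 2 were called higher after VLDL-sized and 3 after chylomicron-sized particles, with none lower. Calls made up 18.2% and 27.3% of the 11, against 35.6% and 25.7% of all genes. Of all genes, 17.9% and 13.0% were called lower. Cd36, the class B receptor for fatty acids and oxidised LDL, had few reads, with estimated counts of 2, 1 and 5 in CTRL, 7, 2 and 11 in VLDLsep and 7, 11 and 13 in CHYLsep. Its fitted log2 fold change after chylomicron-sized particles was 2.03 (SE 0.64, interval 0.6 to 3.45, adjusted p = 0.041), a call that DESeq2 (adjusted p = 0.064) and the fits without CTRL library 1 (1.95, adjusted p = 0.12) or CTRL library 2 (1.59, adjusted p = 0.15) did not give. Limma-trend (adjusted p = 0.051) and the fit with no filter on low counts (adjusted p = 0.074) did not give it either. After VLDL-sized particles it was 1.23 (SE 0.68, interval -0.29 to 2.74, adjusted p = 0.19), and it ranged from 0.79 (adjusted p = 0.46) without CTRL library 2 to 1.87 (adjusted p = 0.033) without VLDLsep library 2. Scarb2, a lysosomal membrane protein of class B related to Scarb1, was at 139, 134 and 139 cpm in CTRL, 170.1, 165 and 157 in VLDLsep and 162, 167 and 159.9 in CHYLsep. Scarb2 rose by small amounts, with log2 fold changes of 0.25 (SE 0.05, adjusted p = 0.0019) and 0.24 (SE 0.05, adjusted p = 0.0034), while Scarb1 fell after both. The remaining call was the lectin Lgals3, higher after both (0.25 and 0.23).

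**Figure D4:**
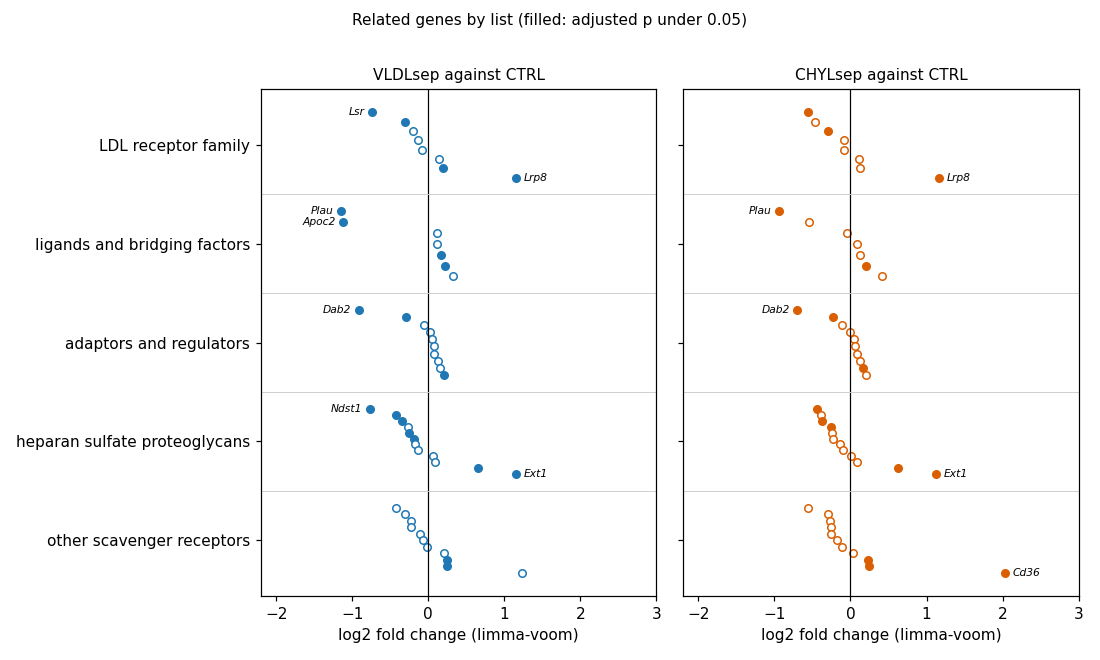
Log2 fold changes (x axis) of tested genes in the 5 related lists (rows), for VLDLsep against CTRL on the left and CHYLsep against CTRL on the right, with filled points for adjusted p-values under 0.05 and names for those called at 0.7 or more in size. Lrp8, at 1.16 and 1.17, lies furthest right of the LDL receptor family in both panels.

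The levels of Scarb1 and Marco over the 9 libraries were set beside those of 10596 genes with a mean of at least 50 counts, as a description. The 5 genes whose log2 levels were most alike with those of Scarb1 were Mvd, Dhcr7, Fads2, Mvk and Cyp51, with Pearson correlations of 0.99, 0.988, 0.986, 0.986 and 0.985. Mvd, for example, was at a mean of 74.0 cpm in CTRL, 22.4 in VLDLsep and 23.5 in CHYLsep, where Scarb1 was at 184, 132 and 135. For Marco they were Inf2, Srpk2, Cmas, Gpn2 and Gm14494, with correlations of 0.946, 0.946, 0.939, 0.934 and 0.927. The points share 3 treatments and a set of control libraries, and 405 genes for Scarb1 but 27 for Marco had a correlation over 0.9.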

How the data were processed

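The authors deposited estimated counts per gene: paired-end reads were quantified with Salmon 0.14.1 against GENCODE release M22 transcripts (GRCm38.p6) and summed to genes with tximport, without pooling of libraries in the table. Coordinates and transcript lengths are from GENCODE M21 on the same build, and 54346 of 54432 identifiers matched a symbol. A gene was tested if 3 or more libraries had over 10 counts of it. TMM (edgeR 4.0.16) and limma-voom (limma 3.58.1, R 4.3.3) were fitted to all 9 libraries in 1 model without a block, as the study's methods describe for filter, scaling and weights. The alternatives were edgeR's quasi-likelihood test and DESeq2 1.42.0 on rounded counts, limma-trend, other scalings and filters, fits of the compared groups only, a replicate block, and fits without single libraries. The script was tested on simulated data. The study's methods speak of biological and technical triplicates, pooled by condition within an experiment, but the labels do not tie libraries to experiments, so p-values measure the spread between these libraries, which may be technical.

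Related genes were named if they were Cd36 or Scarb2, or were called at a log2 fold change of at least 0.5 in size after either particle, and names outside this rule complete counts of calls, and 2 genes counted in the lists are not reported here or drawn. For the called genes with the largest rise and fall after VLDL-sized particles, the 5 genes with the highest Pearson correlation of log2 levels were named. The genes and lists were chosen with earlier results of these data known. Deviations of same-numbered libraries correlated at 0.14, 0.13 and 0.29 between VLDLsep and CTRL, against at most 0.012, 0.12 and -0.12 with other numbers. Between CHYLsep and CTRL the values were 0.12, 0.068 and 0.34, against 0.11, 0.16 and -0.15. Between the particles they were 0.029, 0.12 and 0.36, against 0.18, 0.17 and -0.17. Only for number 3 was the gap wide in every comparison. Replicates in a group differed by 3.38 to 15.1 times counting noise (chi-square per degree of freedom), so none was a duplicate.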

Additional observations from a re-analysis of the deposited data

How the results depend on the processing

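Of the 7 tested genes, Scarb1 and Marco kept both calls against CTRL in every alternative run. With the replicate block, Cd68 was called after chylomicron-sized particles (adjusted p = 0.019, limma) and 4949 genes were called in that comparison rather than 3249, and 6058 rather than 4500 after VLDL-sized particles, with 26 rather than 18 and 28 rather than 22 of the related genes; besides this and the calls of Lrp1 and Stab1 after VLDL-sized particles, the block changed no call of the 7 genes, and in the comparisons other than VLDLsep with CTRL not every library correlated best with that of its own number. Between the particles, the block called 147 genes, DESeq2 24 and leaving out the libraries numbered 3 gave 257, where limma-voom called 0, with 1 and 1 of the 50 and 2 of the 49 related genes tested among them (Dab2 in each). Leaving out single libraries gave 0 to 1 genes between the particles, 3 to 4 of the 7 genes called after VLDL-sized particles (5 with DESeq2) and 2 to 4 after chylomicron-sized particles, the 2 without CTRL library 2, and up to 5 without the libraries numbered 3. Values near 0 changed sign. Stab1 after chylomicron-sized particles was -0.05 with library-size scaling, and -0.004 (without CHYLsep library 1) to 0.07 over the fits that left out libraries. Between the particles, those fits gave -0.06 to 0.04 for Scarb1 (0.02 and 0.04 were above 0), -0.004 to 0.08 for Cd68, -0.07 to 0.06 for Lrp8 (0.05 and 0.06 above 0), -0.13 to 0.22 for Ext1 (-0.13, -0.05 and -0.09 below 0) and -0.02 to 0.04 for Scarb2 (-0.02 and -0.01 below 0), and Scarb2 was -0.01 with library-size scaling. The cause of these changes was not tested. Marco, with 49 to 162 counts a library, Cd36 and the genes at 0 are limited by depth.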
